A study of Mus musculus with 6 samples.

Results

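The 5 genes described here encode the core of the TGF-beta kinase route that does not pass through Smad proteins: Traf6, Map3k7, Tab1, Tab2 and Mapk14. Their members were all probe sets for which the platform annotation gives 1 of these symbols and no other gene, which found 21 of the 45101 probe sets on the array. Traf6 has 5 of them, Map3k7 has 6, Tab1 and Tab2 have 2 each, and Mapk14 has 6. The RNA came from tongues of C57BL/6J mouse embryos at embryonic day 14.5, 3 with the genotype Tgfbr2 fl/fl; Wnt1-Cre (called mutants here) and 3 with Tgfbr2 fl/fl and no Cre (controls). All 6 tongues therefore carried floxed Tgfbr2 alleles, although the titles call the controls wildtype. Wnt1-Cre recombines floxed genes in the neural crest and its descendants, which form most tongue connective tissue. The muscle fibres, epithelium, endothelium and blood cells of the same tongue have other origins and keep the receptor gene. The labels call the tissue both tongue and tongue mesenchyme and do not say whether the embryos came from separate litters, and the p-values below measure only the spread between these particular samples, which may be technical.

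TGF-beta binds a complex of type II and type I receptors. Besides phosphorylating Smad proteins, the complex recruits the ubiquitin ligase TRAF6, which joins polyubiquitin chains to itself and to the kinase TAK1, the product of Map3k7. TAB1 and TAB2 are the partners that hold TAK1 in an active complex: TAB1 binds and activates the kinase, and TAB2 binds the polyubiquitin chains. TAK1 then phosphorylates MAP2 kinases, which activate p38 kinases, of which p38 alpha (Mapk14) is the most widely expressed, and JNK kinases. In muscle, p38 alpha is known to promote the differentiation of myoblasts. The route is switched on by ubiquitin and phosphate groups, and the arrays measured only RNA.

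Values are log2 expression after RMA, the authors' background correction, normalization and summary of each probe set, so a difference of 1 is a doubling. A gene was represented by its brightest probe set, and the 25% of genes with the lowest mean (under 5.17) were not tested, which left 13645 genes and kept all 5 genes of the route. Of these 13645 genes, 292 (2.14%) differed between the genotypes at an adjusted p under 0.05 (limma, Benjamini-Hochberg). Mutant array 1 stood apart from the other 5 arrays, with correlations over genes of at most 0.978 to any other array, whereas each of the others reached at least 0.992 with some array. The targeted gene, Tgfbr2, had 3 probe sets, of which the brightest read 11.16, 11.79 and 11.69 in the mutants (arrays 1 to 3) and 11.55, 11.82 and 11.80 in the controls (log2 difference -0.18, adjusted p = 0.642). Without mutant array 1 its difference was 0.014 (adjusted p = 0.957). Where its probes lie relative to the floxed part was not examined, so this does not check the genotype. The 5 markers each of skeletal muscle, mesenchyme and epithelium were all above the filter value, with lowest means of 9.65, 10.1 and 10.6.

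None of the 5 genes passed the test, so their count of 0 of 5 stood beside a background of 2.14% of genes. By the brightest probe set, Map3k7 had the largest difference of the 5 and was lower in every mutant than in any control, and the other 4 overlapped between the genotypes. At an unadjusted p under 0.05, 1 of the 5 (Map3k7) passed, against 16.9% of all tested genes, and 1 of 5 had groups that did not overlap, against 25.1%. The median log2 difference was 0.04 for the 5 genes and 0.02 for all tested genes. The unadjusted 95% intervals of the 5 fold changes reached from 0.608-fold at their lowest (Map3k7) to 1.32-fold at their highest (Tab1).

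**Figure D1:**
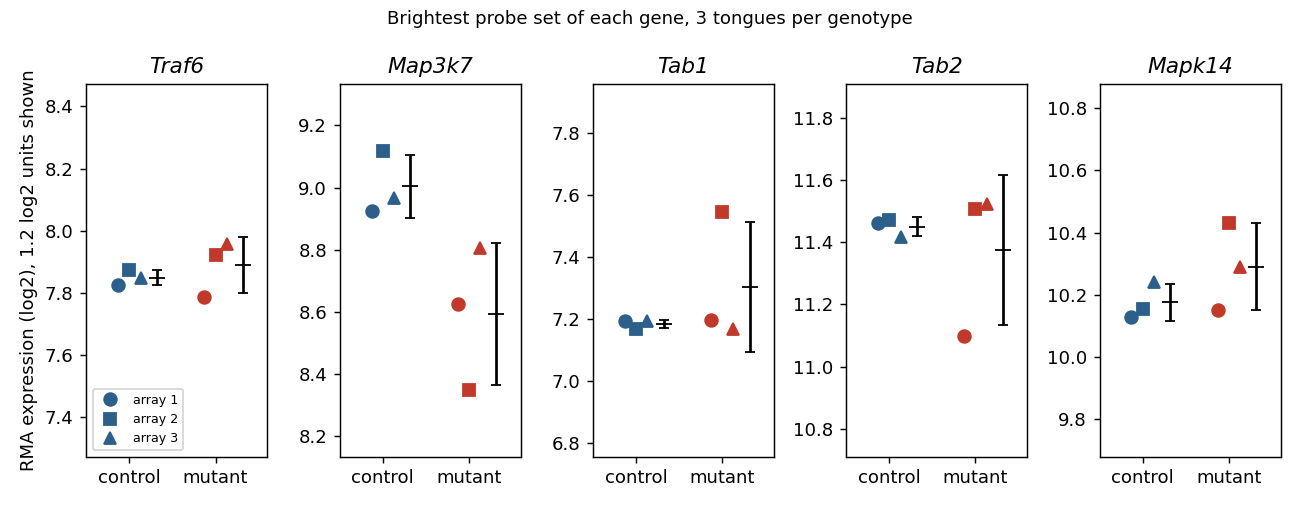
RMA expression (log2) of the brightest probe set of each gene in the 3 control (blue) and 3 mutant (red) tongues, with the title number of the array as the symbol and the mean and SD (n = 3) as black bars. Every panel spans the same 1.2 log2 units, and the Map3k7 panel is the one where the mutants (8.35 to 8.81) lie below the controls (8.93 to 9.12).

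Traf6 encodes the ubiquitin ligase at the head of the route. Its brightest probe set (1435350_at) read 7.79, 7.92 and 7.96 in the mutants (arrays 1, 2 and 3 in turn, as in all such sentences) and 7.83, 7.87 and 7.85 in the controls. The mutants reached both below and above the narrow range of the controls. The means were 7.89 ± 0.09 and 7.85 ± 0.023 (SD, n = 3 each), and the log2 difference was 0.04 with a 95% interval of -0.16 to 0.24 (standard error 0.087, adjusted p = 0.848 by limma). Traf6 was among the steadiest transcripts of the series: only 5.08% of tested genes varied as little or less over the 6 arrays (root mean square deviation 0.057). The 4 other Traf6 probe sets differed by -0.06 to 0.07, and 3 of them lay under the filter value, where RMA compresses differences.

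Map3k7 encodes the kinase TAK1, on which the route converges. Its brightest probe set (1425795_a_at) read 8.62, 8.35 and 8.81 in the mutants and 8.93, 9.12 and 8.97 in the controls. The lowest value belonged to mutant array 2, not to mutant array 1, and the highest mutant stayed below the lowest control. The log2 difference was -0.41 (standard error 0.13, 95% interval -0.72 to -0.10), which corresponds to 0.608 to 0.932 times the control level. It missed the threshold after adjustment over all genes (unadjusted p = 0.0160, adjusted p = 0.180, limma). By size it was above that of most genes, at the 89.1 percentile of absolute differences.

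The other Map3k7 probe sets gave smaller differences. The second brightest (1455441_at) read 7.88, 8.24 and 8.36 in the mutants and 8.26, 8.81 and 8.46 in the controls, and its groups overlapped (log2 difference -0.35). The third (1419988_at) read 7.69, 7.59 and 7.73 against 7.81, 8.01 and 7.80, a difference of -0.21 with every mutant below every control. In both of these, as in the brightest, control array 2 was the highest of the 6. The fourth (1426627_at) did not share this pattern: it read 7.16, 6.88 and 6.73 in the mutants and 7.36, 6.70 and 6.70 in the controls, and its means were 6.92 in both groups. Array 1 was the highest of its group there in mutants and controls alike. The 2 remaining probe sets lay under the filter value and differed by -0.07 and -0.14. Of the 6, none passed (lowest adjusted p = 0.238 over all probe sets), and the mean over them gave -0.20 for the gene (adjusted p = 0.297).

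Tab1 encodes the TAK1 partner that activates the kinase and that can also bind p38 alpha directly. Its brightest probe set (1426898_at) read 7.20, 7.55 and 7.17 in the mutants and 7.19, 7.17 and 7.19 in the controls. The 3 controls and mutant arrays 1 and 3 lay within a few hundredths of each other, and mutant array 2 stood above them. The log2 difference of 0.12 (SE 0.12, adjusted p = 0.648, limma) rested on that array: without it the difference was -0.00204. The other Tab1 probe set was among the dimmest of the array and differed by 0.07.

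Tab2 encodes the partner that reads polyubiquitin chains. The brightest probe set (1423462_at) read 11.10, 11.51 and 11.52 in the mutants and 11.46, 11.47 and 11.42 in the controls. Only mutant array 1 was apart, below the others, and mutant arrays 2 and 3 lay just above the controls. The log2 difference was -0.07 (standard error 0.13, adjusted p = 0.807, limma), and it turned to 0.065 without mutant array 1. The mean over both probe sets gave -0.19 for the gene (adjusted p = 0.400). The other probe set (1451003_at), designed on the same source sequence, read 10.37, 10.32 and 10.70 in the mutants and 10.77, 10.76 and 10.76 in the controls. There mutant arrays 1 and 2 were low, mutant array 3 lay just below the controls, and the groups did not overlap (log2 difference -0.30, unadjusted p = 0.0329, adjusted p = 0.325 over all probe sets).

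Mapk14 encodes p38 alpha, the kinase at the end of the route. Its brightest probe set (1416703_at) read 10.15, 10.43 and 10.29 in the mutants and 10.13, 10.16 and 10.24 in the controls. Mutant arrays 2 and 3 were above all controls and mutant array 1 was among them. The log2 difference was 0.12 (standard error 0.10, adjusted p = 0.603, limma, 95% interval -0.12 to 0.35). The probe sets of Mapk14 did not share a direction: 2 of the 6 were positive and 4 negative. The dim 1459617_at read 5.64, 5.61 and 5.46 in the mutants and 5.24, 5.41 and 5.44 in the controls, and the groups did not overlap, with a gap between them smaller than the spread within either (difference 0.21). In contrast 1416704_at, designed on the same source sequence as the brightest, read 6.44, 6.32 and 6.61 against 6.54, 6.69 and 6.63, a difference of -0.17. The mean over all 6 probe sets gave -0.02 for the gene, so the sign for Mapk14 depends on the probe set read.

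Over all 21 probe sets, 8 had a positive and 13 a negative log2 difference, from -0.41 (Map3k7) to 0.21 (Mapk14), and 0 passed the adjusted threshold, against 0.748% of all 45037 probe sets that are not controls. At an unadjusted p under 0.05 there were 2 (1 of Map3k7 and 1 of Tab2), against 13.3% of all probe sets. The genotypes did not overlap for 4 of the 21 (2 of Map3k7, 1 of Tab2 and 1 of Mapk14), against 20% of all probe sets. The probe sets are not independent readings, since 10 of them form 5 pairs that the annotation assigns to the same source sequence. Of the 21, 14 lay above the filter value, 6 of them positive and 8 negative.

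**Figure D2:**
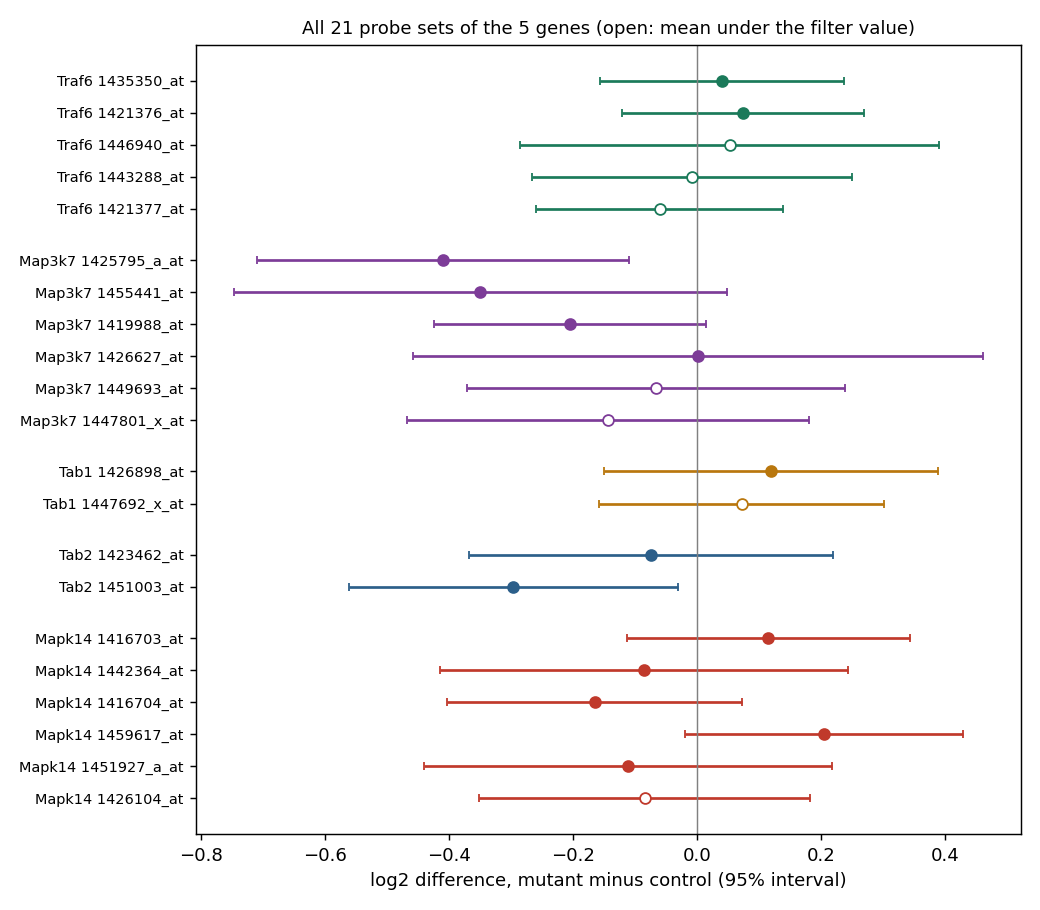
Log2 difference (mutant minus control, horizontal axis) of each of the 21 probe sets with its unadjusted 95% limma interval, ordered by gene and brightness. Filled points lie above the filter value of 5.17 and open points under it. The intervals of the brightest Map3k7 probe set and of the second Tab2 probe set lie below 0 and the other 19 cross it.

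Whether probe sets of the same gene differed from each other in their response was tested with the gap in log2 value to the brightest probe set on each array, for the 9 further probe sets above the filter value (2-sided exact permutation test of 3 against 3). The gap separated the genotypes for 3 of them, each at an exact permutation p of 0.1, the smallest possible (adjusted p = 0.3 over the 9), which no contrast of 3 against 3 could bring under 0.05: 1419988_at of Map3k7, 1451003_at of Tab2 and 1416704_at of Mapk14. Over all 10662 such further probe sets above the filter value, of any gene, the gap separated the genotypes for 17.6%. For 1426627_at of Map3k7, whose means were equal, the gap to the brightest was -1.47, -1.47 and -2.08 in the mutants and -1.57, -2.42 and -2.26 in the controls. These overlapped (exact permutation p = 0.2).

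**Figure D3:**
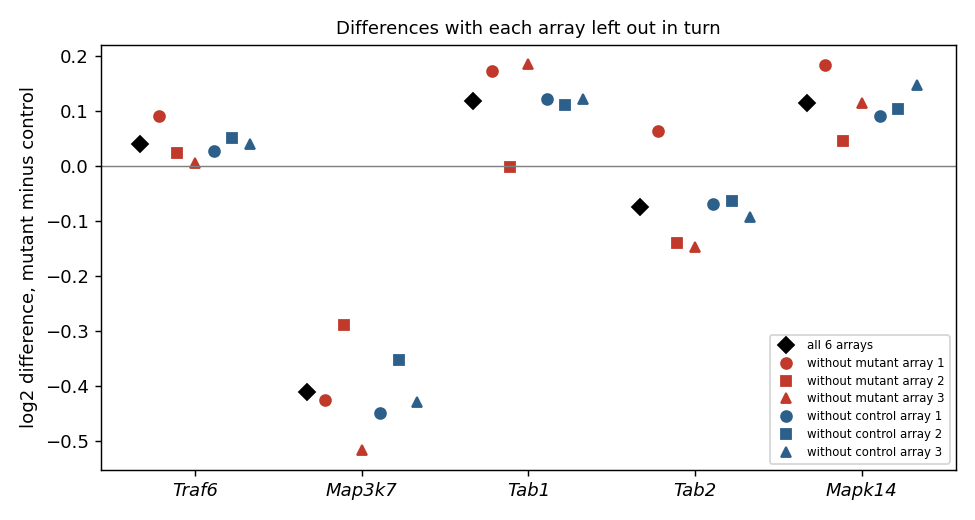
Log2 difference (mutant minus control, vertical axis) of the brightest probe set of each gene with all 6 arrays (diamond) and with each array left out in turn (red for mutant arrays, blue for control arrays). Map3k7 stays between -0.52 and -0.29, Tab1 falls to about 0 without mutant array 2, and Tab2 crosses 0 without mutant array 1.

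With each array left out in turn, none of the 5 genes passed. The Map3k7 difference stayed negative in these 6 fits, between -0.52 without mutant array 3 (adjusted p = 0.0951) and -0.29 without mutant array 2 (adjusted p = 0.315). Traf6 stayed between 0.0058 and 0.09 and Mapk14 between 0.05 and 0.18.

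The genes whose values over the 6 arrays most resembled each of the 5, by the root mean square distance between values centred on each gene's mean, were found among all tested genes. For Traf6 they were Pank3 (distance 0.0044) and Gm2a (0.017), and for Map3k7 Dnajc21 (0.061) and Eif4ebp1 (0.070). For Tab1 they were P4hb (0.025) and Creld1 (0.025), which were likewise highest in mutant array 2. For Tab2 they were Chsy1 (0.023) and D5Ertd579e (0.023), which were likewise lowest in mutant array 1, and for Mapk14 Sirt2 (0.023) and Kcne1l (0.023). With so few arrays and so many genes, near neighbours are found for most patterns.

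Around the 5 genes, 92 further genes of the route and its branches were listed by role, of which 85 had a probe set of their own and 84 were tested. None passed (0 of 84, against 2.14% of all tested genes), 11 had an unadjusted p under 0.05 (13.1%, against 16.9%), and the smallest adjusted p was 0.0932 (Nfkbia). The genotypes did not overlap for 20 of the 84, against 25.1% of all tested genes. The median log2 difference was -0.04 with 53 of 84 negative, and it rested on mutant array 1. That array held the lowest value of the 6 for 42 of the 84 genes (50%), against 32.6% of all tested genes. Without it the median was 0.02 and 34 were negative. The counts of positive and negative genes by role below include that array. Of all tested genes, 53.4% were positive. The median absolute difference was 0.11 in the route and 0.13 over all tested genes.

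**Figure D4:**
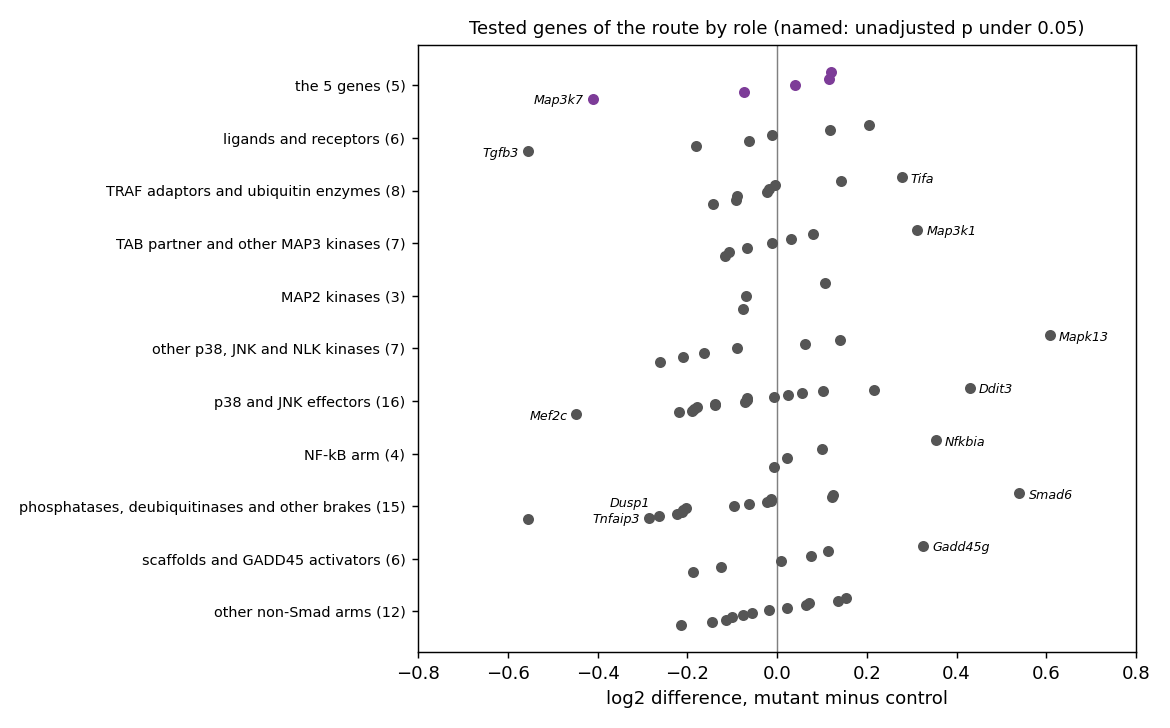
Log2 difference (mutant minus control, horizontal axis) of the brightest probe set of the 5 genes (purple) and of the 84 other tested genes of the route (grey), in rows by role with the number of genes in parentheses. Genes with an unadjusted p under 0.05 are named. All 84 lie between -0.56 (Tgfb3) and 0.61 (Mapk13), and none passed the adjusted threshold.

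Upstream of TRAF6, none of the 6 ligand and receptor genes passed. The ligand gene Tgfb3 read 8.23, 8.83 and 8.90 in the mutants and 8.96, 9.27 and 9.39 in the controls. Its log2 difference was -0.56 (adjusted p = 0.223, and 0.0472 with the title number of the arrays as a block). All 3 mutants were below all controls, and without mutant array 1 the difference was -0.34 (adjusted p = 0.202). The next 3 genes lie outside the naming rule and were chosen after their values were seen. Tgfbr1, encoding the type I receptor to which TRAF6 binds, differed by -0.01 (adjusted p = 0.967). The ligand gene Tgfb2 read 9.94, 10.80 and 11.25 in the mutants against 10.74, 10.77 and 10.66, and the co-receptor gene Tgfbr3 read 9.870, 11.087 and 11.003 against 10.312, 10.500 and 10.535. In both, mutant array 1 was below all controls and mutant arrays 2 and 3 were above them, for Tgfb2 only barely in array 2. Without mutant array 1 Tgfbr3 was 0.60 higher in the mutants and passed (adjusted p = 0.0186), among 670 of 13645 genes called.

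Of the 8 TRAF adaptors and ubiquitin enzymes, 2 were positive and 6 negative. Tifa, which encodes an adaptor that binds TRAF6, differed by 0.28 (adjusted p = 0.208) with all mutants above all controls. Ube2v1, which encodes a partner of the chain-building conjugating enzyme, differed by -0.14 (adjusted p = 0.443). Its other probe set differed by -0.21, and in both all mutants were below all controls. Of 7 genes for TAB3 and other MAP3 kinases, 3 were positive. Tab3, the close relative of Tab2, differed by 0.08 (adjusted p = 0.663), and Map3k1, a kinase that feeds the JNK branch, by 0.31 (adjusted p = 0.239) with no overlap. Of the MAP2 kinases, which TAK1 phosphorylates, 3 were tested. Map2k3, an activator of p38, differed by 0.11 (adjusted p = 0.622, and 0.04 without mutant array 2). Map2k4, an activator of JNK and p38, differed by -0.08 in its brightest probe set (adjusted p = 0.658). Its other probe set, 1426233_at, differed by -0.31 (unadjusted p = 0.0431, adjusted p = 0.356 over all probe sets, limma). Neither Map2k4 probe set overlapped between the genotypes.

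Of the 7 other kinases at the level of Mapk14, 3 were positive and 4 negative. Mapk13, which encodes p38 delta and is known from epithelia, had the largest difference of the route: it read 8.85, 8.61 and 8.27 in the mutants and 8.05, 7.94 and 7.91 in the controls. The log2 difference was 0.61 (SE 0.15, adjusted p = 0.103). Every mutant was above every control. Mapk13 passed without mutant array 3 (0.76, adjusted p = 0.0388) and with array quality weights (0.52, adjusted p = 0.0244), which called 1034 of 13645 genes. The 5 epithelial markers (Krt5, Krt14, Krt15, Epcam and Cdh1) moved alongside it: all 5 differences were positive, though Cdh1 overlapped between the genotypes. The median was 0.60, with 0 of 5 passing. Their mean log2 level was 11.25 to 11.97 in the mutants and 10.92 to 11.05 in the controls. Their part in the Mapk13 difference was not tested. In a bulk tongue, more cells of a type and more RNA per cell cannot be told apart.

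The p38 gene of skeletal muscle, Mapk12, differed by -0.21 (adjusted p = 0.447) and Mapk11, encoding p38 beta, by -0.09 (adjusted p = 0.753), both named after their values were seen. Mapk9, encoding a JNK kinase, differed by -0.26 (adjusted p = 0.362) with no overlap in its brightest probe set. Without mutant array 1 it was -0.13, and its other 2 probe sets gave -0.07 and -0.14 with overlap. Among 16 tested effectors of p38 and JNK, 11 were negative, against 46.6% of all tested genes. Over the 84 route genes pooled, 53 were negative with mutant array 1 and 34 without it. For the 16 effectors, 0 had groups that did not overlap, against 25.1% of all tested genes. Mef2c, a p38-responsive transcription factor gene of muscle, read 11.66, 11.33 and 12.09 in the mutants and 11.99, 12.17 and 12.26 in the controls, a difference of -0.45 (adjusted p = 0.292), and -0.27 without mutant array 2. The 5 muscle markers (Acta1, Myh3, Myod1, Myog and Des) were all negative too, though Myod1 and Des overlapped between the genotypes. The median was -0.67, with 0 of 5 passing. Their mean log2 level was 11.11 to 11.77 in the mutants and 11.90 to 12.16 in the controls. Their part in the Mef2c and Mapk12 differences was not tested. Ddit3, a stress transcription factor gene whose product p38 phosphorylates, differed by 0.43 (adjusted p = 0.267).

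TAK1 also activates NF-kB, and of the 4 genes tested from that arm 3 were positive. Ikbkb (0.02) and Rela (-0.01), named after their values were seen, were near 0 and overlapped between the genotypes. Nfkbia, which encodes the inhibitor of NF-kB, read 12.14, 12.20 and 12.12 in the mutants and 11.82, 11.73 and 11.84 in the controls. The groups were tight and separate, with a log2 difference of 0.35 (SE 0.084, adjusted p = 0.0932). With array quality weights, which called 1034 of 13645 genes, Nfkbia passed (0.37, adjusted p = 0.0286). The 5 macrophage markers (Csf1r, C1qa, C1qb, Aif1 and Cd68) were all positive, though Csf1r by only 0.02 with overlap. Their median was 0.57 and 2 of 5 passed (C1qa and C1qb). Mean log2 levels of the list were 8.09 to 8.20 in the mutants and 7.40 to 7.71 in the controls. The 5 epithelial and the 3 measured Schwann and neural markers were all positive too, with overlap for Cdh1 and Tubb3. The part of any of these markers in the Nfkbia difference was not tested. Ikbkg, which encodes the regulatory subunit of the kinase that acts on that inhibitor, differed by 0.10 in its brightest probe set (adjusted p = 0.585), without overlap. Its 6 probe sets differed by 0.01 to 0.28. The largest, 1435646_at, had no overlap either.

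Among 15 tested phosphatases, deubiquitinases and other brakes on the route, 3 were positive and 12 negative, where 53.4% of all tested genes were positive. This count includes mutant array 1. Smad6, which encodes an inhibitory Smad, read 8.21, 8.60 and 8.13 in the mutants and 7.92, 7.66 and 7.74 in the controls, a difference of 0.54 (adjusted p = 0.124). All mutants were above all controls. The gene passed with array quality weights (0.63, adjusted p = 0.0230), which called 1034 of 13645 genes. Dusp1, a phosphatase gene whose product removes phosphate from p38 and JNK, differed by -0.26 (adjusted p = 0.244) with no overlap. Tnfaip3, listed with these brakes and named after its values were seen, differed by -0.29 (adjusted p = 0.275, limma). All its mutants were below all controls. Of 6 scaffold and GADD45 genes 4 were positive. Gadd45g, whose product activates a MAP3 kinase upstream of p38, differed by 0.33 (adjusted p = 0.165) with no overlap. Mapk8ip1, a JNK scaffold gene, differed by -0.19 in its brightest probe set (adjusted p = 0.342), also with no overlap. In 1440619_at it differed by 0.25, with overlap. Of 12 genes of other non-Smad arms 5 were positive. Grb2, an adaptor of the ERK arm, differed by -0.21 (adjusted p = 0.303), with no overlap in its brightest probe set. Pard6a, a polarity protein gene, differed by 0.15 (adjusted p = 0.554), with 0.08 to 0.24 when an array was left out.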

How the data were processed

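Total RNA from 6 embryonic tongues was biotin-labelled by the Affymetrix cRNA procedure and read on arrays, per the labels' protocols. The authors deposited log2 values, and the submitters' processing notes name RMA as the tool. Its version and the probe annotation they used are not given in the sources read here. Quantile normalization within RMA hides a change shared by most genes. Arrays have no read depth: the 3 arrays per group limit the precision (median standard error of a log2 difference 0.117).

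Of 45101 probe sets, 64 are controls, 34945 have 1 gene symbol in the platform annotation, 932 several and 9160 none. The brightest of a gene's probe sets stood for it (18193 genes), and the lowest 25% were left out. The test was that of limma 3.58.1 (R 4.3.3), with lmFit and eBayes, 2-sided, with Benjamini-Hochberg adjustment over all 13645 genes and a threshold of 0.05. Every probe set was also fitted on its own without a filter, over 45037 probe sets, and values given for a single probe set other than a gene's brightest come from that fit. The fit was also run on simulated data with independent noise and added shifts larger than any difference of the 5 genes. That run therefore cannot tell how often differences of their size are found. Figures used matplotlib 3.10.9.

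The rule for naming took all probe sets of the 5 genes, Tgfbr2, any called route gene, the 2 smallest p per role, and the 2 nearest genes of each of the 5. Members and lists were chosen with earlier results of these data known. Alternatives were other filters, the mean over probe sets, median centring, further quantile normalization, trend and robust fitting, array weights, the replicate block, each array left out and a threshold of 0.1. Arrays with the same title number deviated together from their genotype means (correlations of 0.309, 0.105 and 0.206 over genes, each above 0.1), although 2 of the 6 pairs with different numbers were above 0.1 too (0.196 for mutant 2 with control 3 and 0.147 for mutant 3 with control 2). The main fit did not pair the arrays, and the title number was used as a block only in the alternative run named for it. That pairing rests on the titles and these correlations alone, and the correlations do not set the same-number pairs apart from all others.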

Additional observations from a re-analysis of the deposited data

How the results depend on the processing

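None of the 5 genes and none of their 21 probe sets passed under any alternative run. The log2 differences of Traf6 and Map3k7 kept their sign in all 14 alternatives each, the latter between -0.52 and -0.20 with adjusted p between 0.0651 (array quality weights) and 0.547. Tab1 ranged from -0.00204 (without mutant array 2) to 0.19 with an array left out, and its mean lies in the lowest 50% of genes, so that filter gave it no value. Tab2 ranged from -0.15 to 0.065 (without mutant array 1) with an array left out, was 0.034 with array quality weights and was -0.19 as the mean of its probe sets. Mapk14 was -0.021 as the mean of its probe sets. For these sign changes the cause was not tested beyond the array or probe sets that each setting removes or weights.

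The number of all genes called (292) moved to 151 with the lowest 50% of genes left out, to 1034 with array quality weights, to 490 with the replicate block, to 549 at an adjusted p under 0.1, and to between 16 (without control array 2) and 670 (without mutant array 1) with an array left out. The count of the 84 other route genes called (0) became 3 with array quality weights (Mapk13, Nfkbia and Smad6), among 1034 of 13645 genes called. Those weights were lowest for mutant array 1 (0.155) and highest for control array 2 (3.34). The count became 1 with the replicate block (Tgfb3, among 490 genes called) and 1 at an adjusted p under 0.1 (Nfkbia, among 549). With an array left out the count was between 0 and 1. The route gene called was Tgfbr3 without mutant array 1 (among 670 genes called) and Mapk13 without mutant array 3 (among 242). The replicate block changed no call among the 5 genes. Dim probe sets, with 7 of the 21 under the filter value, limit what can be seen.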

Other observations

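Some other genes of the route had several probe sets. Groups did not overlap for 20% of all probe sets, and probe sets of the same gene are not independent readings. Of the 5 probe sets of Nfkbia, 4 had every mutant above every control, with log2 differences of 0.27 to 0.39. The dimmest, 1420089_at (mean 6.86), differed by -0.04. All 5 probe sets of Mef2c were negative, from -0.56 to -0.30. The 2 probe sets of Map3k1 differed by 0.31 and 0.37, both without overlap, the latter with a mean of 4.72, under the filter value. The 2 probe sets of Map2k3 had opposite signs (0.11 for the brighter and -0.11 for 1425456_a_at). Usp18, whose product removes ubiquitin-like ISG15 and is known as a brake on TAK1, was under the filter value: it read 4.95, 4.72 and 4.46 in the mutants and 4.35, 4.07 and 4.24 in the controls, a log2 difference of 0.49 (unadjusted p = 0.00850, adjusted p = 0.200 over all probe sets, limma).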
